A study of Homo sapiens
Mus musculus with 5 samples.

Results

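The HOX genes, the homeodomain transcription factors of the A, B, C and D clusters, were followed in tumors that a human lung cancer line formed in mouse brain and mouse lung. A gene was a member when its symbol, in capitals, was HOX with a cluster letter from A to D and a position number. The human table listed 33 members among 25524 genes and the mouse table listed 24 among 24628, which gave 57 of 50152 entries. By symbol, 23 were in both tables, 10 in the human table alone and 1 in the mouse table alone. RefSeq (GRCh38.p14) holds 39 human HOX genes, and the other 6 were not analysed here. Expression was given as RPKM, that is reads scaled to gene length and to the reads of the library.

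The cells were H2030-BrM3, a derivative of the lung adenocarcinoma line H2030 selected for growth in the brain, and the hosts of both groups were athymic nu/nu mice, in which T cells do not mature for want of a thymus. The brain tumor group (BrMet) had 3 RNA-seq libraries. The lung tumor group (LuOt) had 2, from orthotopic tumors started by injecting cells through the trachea. Neither the age of the mice nor the time of growth is in the labels, and 1 cell line stands for the tumor. Human values were read as those of the cancer cells and mouse values as those of the host tissue in the same piece. Whether each tumor is from its own animal is not in the labels, and the p-values below reflect the spread among these 5 libraries and no more.

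In the vertebrate embryo HOX genes give cells their place along the head-to-tail axis. Within a cluster the genes lie in the order of their position numbers, and genes with low numbers are used closer to the head than genes with high numbers. The forebrain and midbrain form without them, the hindbrain and spinal cord carry them in nested domains, and the connective tissue of the lung keeps several A and B cluster genes into adult life. Cells of adult tissues often keep the code of the place where they arose.

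The reads behind the values were recovered from the RPKM and set the precision of each library. The human reads of the 5 libraries ran from 2445904 in brain tumor 3 to 8419288 in brain tumor 1, and the mouse reads from 231156 in lung tumor 1 to 8636094 in brain tumor 3. The cancer cell marker KRT18, a keratin, was at 210 to 604 RPKM in the human table of the brain tumors. In that of the lung tumors it was at 341 to 469 RPKM. KRT19, a keratin of the same marker list, reached 0.458 RPKM at most, and NKX2-1, a transcription factor of lung epithelium, 0.594 RPKM. In the hosts of the brain tumors all tested neuron, astrocyte and oligodendrocyte markers (6, 5 and 5 genes) were higher by limma, adjusted p under 0.05. Of all mouse genes tested, 14.3% were called higher. The host of lung tumor 1 was shallow and went in part against its label. It held 29 reads of Sftpc, a surfactant gene of alveolar cells, where the rate of lung tumor 2 gives 2663, and 1 read of Nkx2-1 where that rate gives 42.0. It also held 138 reads of the skeletal muscle actin Acta1 and 1019 of the collagen gene Col1a1, against 0.0873 and 482 at the rate of lung tumor 2. Host results are therefore given with and without this library.

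The cancer cells carried a broad HOX code whose total level overlapped between brain and lung, and the hosts a narrower one with few reads in the brain. Of human reads, HOX genes took 218, 241 and 189 per 1000000 in brain tumors 1, 2 and 3, against 200 and 186 in lung tumors 1 and 2. Of mouse reads, Hox genes took 14, 1.02 and 17.7 per 1000000 in the hosts of the brain tumors, against 99.5 and 156 in those of the lung tumors. The cancer cell groups overlapped, and the host of every brain tumor lay below the host of both lung tumors. Exact Poisson intervals (95%), which cover counting error only, ran for the host from 9.92 to 19.2, from 0.330 to 2.37 and from 15.0 to 20.8 in the brain tumors, and from 63.1 to 149 and from 146 to 167 in the lung tumors. In bulk tissue, fewer cells of a type and less RNA per cell cannot be told apart.

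**Figure D1:**
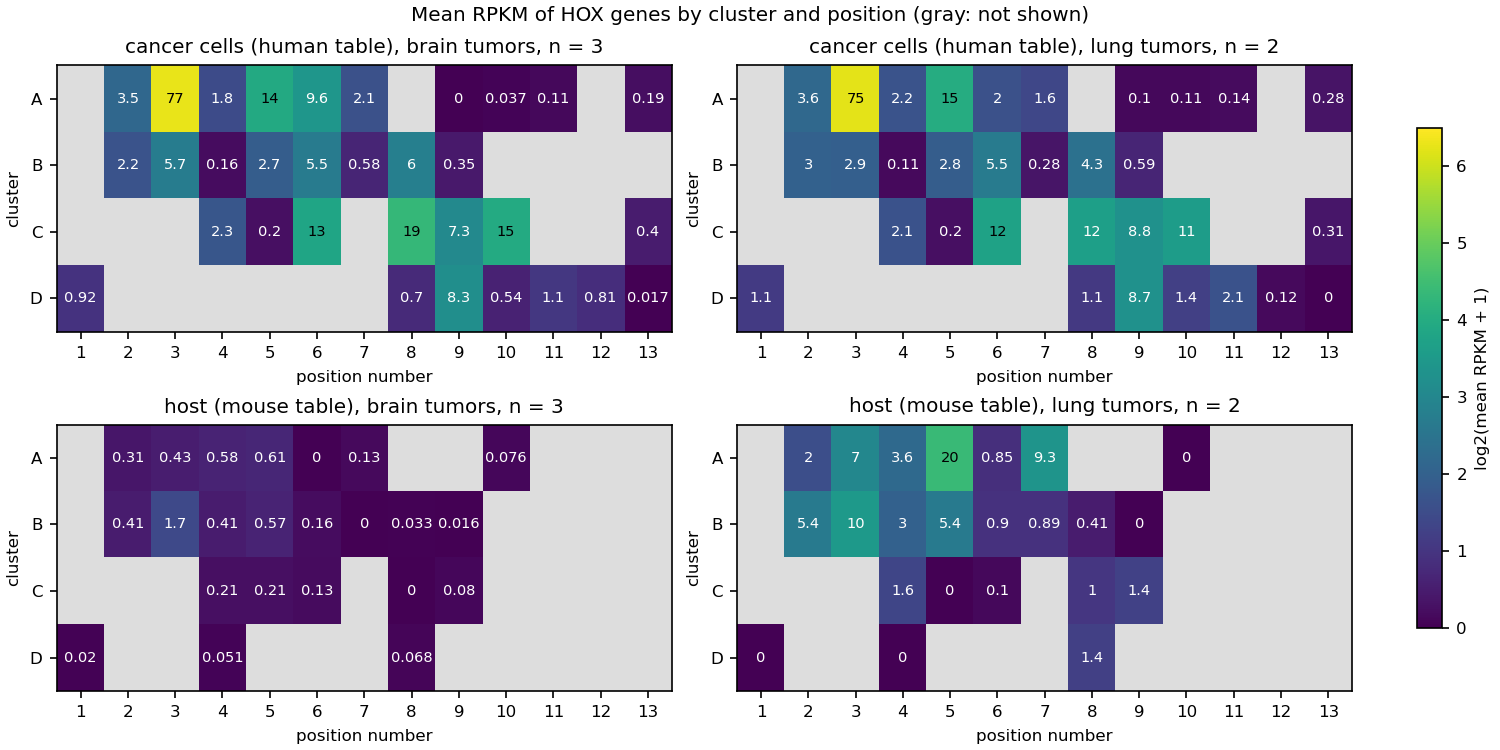
Mean RPKM of HOX genes by cluster (rows) and position number (columns), for the cancer cells (top) and the host (bottom), in brain tumors (left, n = 3) and lung tumors (right, n = 2). Color is log2(mean RPKM + 1), and gray marks a place with no value shown. The 2 upper panels show nearly the same pattern, with HOXA3 highest, and the lower left panel is dark throughout.

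Of the 33 human members, 15 were at 1 RPKM or more in all 5 libraries, 22 in at least 2, 1 in exactly 1 library and 10 in none. These 22 members were tested between brain and lung, together with all other human genes that met the same filter. None of the 22 passed limma at an adjusted p under 0.05 (0 of 22, against 0.00693% of the 14423 human genes tested). At an unadjusted p under 0.05, 1 member passed (4.55%, against 10.5% of all tested genes). Voom, limma's method for counts, on the recovered reads called 0 members and 0 human genes in all. The groups did not overlap for 4 members (18.2%, against 29.7% of all tested genes). The median log2 fold change of the members, brain minus lung, was 0.01, beside 0.09 over all tested genes, and 16 of the 22 lay within 0.5 of 0 in either direction, beside 55.6% of all tested genes. The 95% interval of a member reached 1.08 to either side in the median on the log2 scale, and a call needs more than an interval clear of 0, since p-values are adjusted over all tested genes.

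The A cluster lies on chromosome 7 and had all 11 of its RefSeq genes in the table. It was sharply divided in the cancer cells. The 7 genes of positions 1 to 7 together had 791, 645 and 166 reads in the brain tumors, against 530 and 304 reads in the lung tumors. The 4 genes of positions 9 to 13 had 3, 9 and 2 reads in the brain tumors, against at least 18 and 0 in the lung tumors. HOXA9 itself, a gene of blood stem cells and leukemia, was above 0 in lung tumor 1 alone, at 0.201 RPKM, so its read number is not fixed. The highest value among these 4 was 0.558 RPKM, for HOXA13 in lung tumor 1.

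HOXA3, which patterns the pharyngeal arches and the thymus, was the most abundant member in every library by RPKM and by reads. It had 78.4, 87.8 and 65.5 RPKM in brain tumors 1, 2 and 3, against 78.3 and 71.4 RPKM in lung tumors 1 and 2, from 405, 345 and 98 reads against 313 and 164. The groups overlapped, and the log2 fold change was 0.04 with a 95% interval from -0.68 to 0.76 (limma adjusted p = 0.972). Its RefSeq span, 27107010 to 27152583 in GRCh38.p14, also holds HOXA4, HOXA5, HOXA6, HOXA-AS2 and HOXA-AS3, and the counting rule for such overlaps is not given in the sources used here. In all, 19 of the 33 human members overlapped another RefSeq gene, so their reads could be shared with a neighbor.

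HOXA2, which specifies the second pharyngeal arch, had 3.34, 3.6 and 3.57 RPKM in the brain tumors, against 2.52 and 4.65 RPKM in the lung tumors. The 3 brain tumors lay between the 2 lung tumors. HOXA4 had 1.81, 2.11 and 1.44 RPKM in the brain tumors, against 2.34 and 2.04 RPKM in the lung tumors. HOXA5, which in the mouse is needed for normal airways and alveoli, had 19.9, 16.9 and 6.44 RPKM in the brain tumors, against 19.1 and 11.5 RPKM in the lung tumors. HOXA7, a trunk gene, had 2.37, 3.12 and 0.684 RPKM in the brain tumors, against 2.81 and 0.445 RPKM in the lung tumors. The groups overlapped for all 3 of these, and the low HOXA5 and HOXA7 values of brain tumor 3 rested on 16 reads and 1 read.

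HOXA6, a trunk gene next to HOXA5, had the largest difference of the 22 members. It had 10.5, 12 and 6.21 RPKM in brain tumors 1, 2 and 3, against 0.332 and 3.76 RPKM in lung tumors 1 and 2. These values came from 82, 71 and 14 reads in the brain tumors, against 2 and 13 in the lung tumors. Every brain tumor lay above both lung tumors, and the means were 9.58 ± 3.01 RPKM in brain (SD, n = 3) and 2.04 ± 2.42 RPKM in lung (SD, n = 2). The log2 fold change was 2.03 (SE 0.61, 95% interval 0.64 to 3.42), with an unadjusted p of 0.00964 and an adjusted p of 0.446 by limma over all human genes. Without lung tumor 1 it was 1.11 (limma adjusted p = 0.534), and without lung tumor 2 it was 2.95 (limma adjusted p = 0.0249), so the size and the call depend on which lung tumor is used. Over the 14 alternative fits the log2 fold change stayed positive, from 1.11 to 3.12. The groups overlapped for its neighbors HOXA5 and HOXA7. HOXA-AS3, an antisense RNA that overlaps HOXA6, had 4, 8 and 1 reads in the brain tumors, against 0 in both lung tumors.

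**Figure D2:**
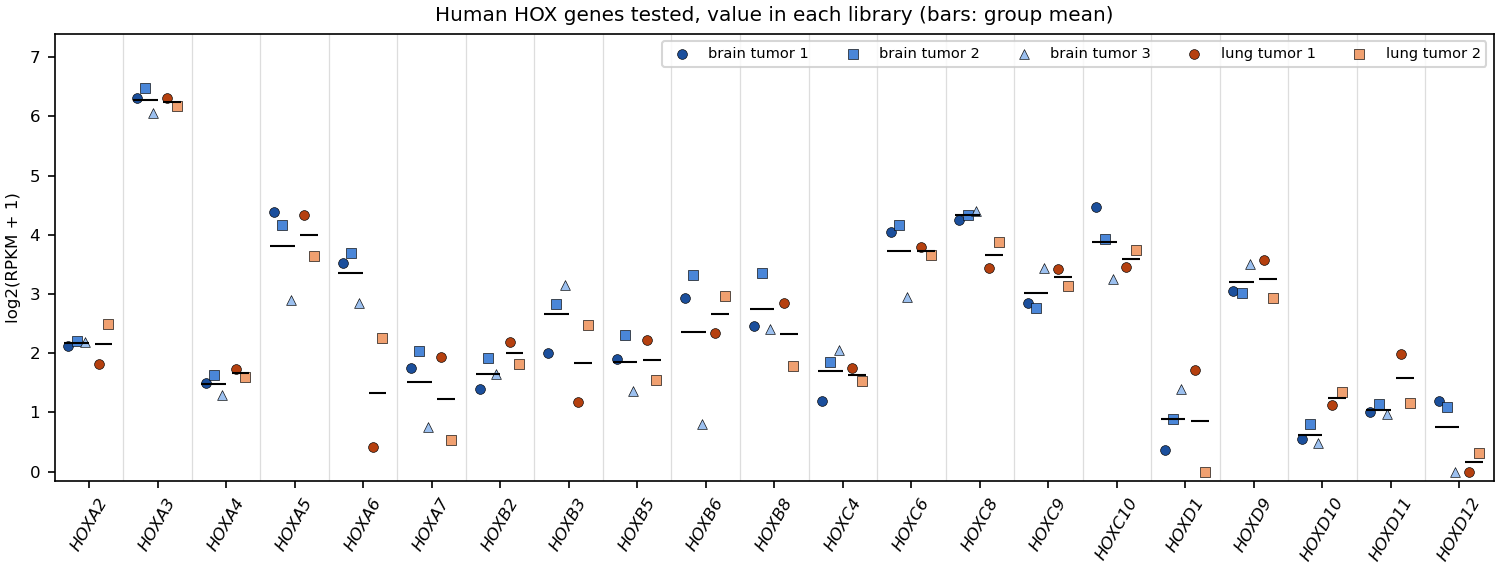
Values of 21 of the 22 tested human HOX genes in each library as log2(RPKM + 1), with the 3 brain tumors left of the 2 lung tumors in each column and a bar at the mean of each group. HOXA6 and HOXC8 have every brain tumor above both lung tumors, HOXD10 and HOXD11 have every brain tumor below them, and the other 17 overlap.

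The B cluster lies on chromosome 17 from 48528526 to 48728750, with 8 of its 10 RefSeq genes in the table, and its members were at low to moderate levels. HOXB2, which acts in hindbrain segments, had 1.62, 2.78 and 2.15 RPKM in the brain tumors, against 3.54 and 2.52 RPKM in the lung tumors. HOXB3 had 3.02, 6.11 and 7.89 RPKM in the brain tumors, against 1.26 and 4.59 RPKM in the lung tumors. HOXB5, which acts in lung branching in the mouse, had 2.72, 3.95 and 1.57 RPKM in the brain tumors, against 3.67 and 1.91 RPKM in the lung tumors. The groups overlapped for all 3, and HOXB3 had the largest log2 fold change of them, 0.83 (SE 0.56, limma adjusted p = 0.571). HOXB6 had 6.64, 9.02 and 0.752 RPKM in the brain tumors, against 4.08 and 6.86 RPKM in the lung tumors. HOXB8 had 4.52, 9.22 and 4.31 RPKM in the brain tumors, against 6.24 and 2.45 RPKM in the lung tumors. Brain tumor 2 was the highest library for both, with overlap between the groups. HOXB4, HOXB7 and HOXB9 stayed under 1 RPKM in all 5 libraries and were not tested. HOXB9 was the 1 untested human member whose groups did not overlap, at 0.295 to 0.449 RPKM in the brain tumors, against 0.464 and 0.707 RPKM in the lung tumors, from 2 to 10 reads per library. Over all 33 listed human members, tested or not, 2 had every brain tumor above both lung tumors (6.06%, against 12% of all listed human genes) and 3 had every brain tumor below (9.09%, against 9.27%).

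The C cluster lies on chromosome 12 from 53938831 to 54056030, with 7 of its 9 RefSeq genes in the table, and it gave the cancer cells a second block of expression that reached position 10. HOXC6, which is used in the thorax and the mammary gland, had 15.5, 17 and 6.69 RPKM in the brain tumors, against 12.9 and 11.7 RPKM in the lung tumors. HOXC8, a gene of brachial spinal cord and thoracic skeleton, had 18.1, 19.3 and 20.1 RPKM in the brain tumors, against 9.82 and 13.8 RPKM in the lung tumors, from 95 to 295 reads per library. Every brain tumor lay above both lung tumors for HOXC8, with means of 19.2 ± 1.02 RPKM in brain (SD, n = 3) and 11.8 ± 2.81 RPKM in lung (SD, n = 2). Its log2 fold change was 0.67 (SE 0.37, 95% interval -0.18 to 1.52, limma adjusted p = 0.521), which did not pass the test. HOXC9, which marks thoracic motor neurons, had 6.23, 5.77 and 9.83 RPKM in the brain tumors, against 9.74 and 7.79 RPKM in the lung tumors. HOXC10, a lumbar gene, had 21.2, 14.3 and 8.51 RPKM in the brain tumors, against 9.92 and 12.4 RPKM in the lung tumors. Brain tumor 3 was the highest library for HOXC9 and the lowest for HOXC10, and the groups overlapped for both.

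HOXC4 had 1.29, 2.60 and 3.15 RPKM in the brain tumors, against 2.36 and 1.88 RPKM in the lung tumors. HOXC4, HOXC5 and HOXC6 share a start at 54016888 in RefSeq, so reads of their common part could fall to any of them. HOXC5 stayed at or under 0.422 RPKM, and HOXC13, a gene of hair and nail, at or under 0.990 RPKM.

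The D cluster lies on chromosome 2 from 176087487 to 176190907, with 7 of its 9 RefSeq genes in the table, and HOXD9 carried most of it. HOXD9, a gene of the lower trunk and limb, had 7.33, 7.10 and 10.4 RPKM in the brain tumors, against 10.9 and 6.60 RPKM in the lung tumors. HOXD10, which acts in hindlimb motor neurons, had 0.458, 0.754 and 0.396 RPKM in the brain tumors, against 1.19 and 1.55 RPKM in the lung tumors. HOXD11, a forearm and kidney gene, had 1.01, 1.21 and 0.953 RPKM in the brain tumors, against 2.97 and 1.24 RPKM in the lung tumors. HOXD9 overlapped between the groups, while every brain tumor lay below both lung tumors for HOXD10 and HOXD11. Their log2 fold changes were -0.63 (SE 0.41, limma adjusted p = 0.563) and -0.54 (SE 0.45, limma adjusted p = 0.634), from at most 8 reads per library for HOXD10 and 25 for HOXD11. HOXD1 had 0.293, 0.848 and 1.62 RPKM in the brain tumors, against 2.27 and 0 RPKM in the lung tumors. HOXD12, a digit gene, had 1.29, 1.13 and 0 RPKM in the brain tumors, against 0 and 0.241 RPKM in the lung tumors. These were overlapping groups of few reads. HOXD8 passed 1 RPKM only in lung tumor 1, at 2.08, and HOXD13, the most tail-ward gene, had at least 1 read in brain tumor 1 and none elsewhere.

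**Figure D3:**
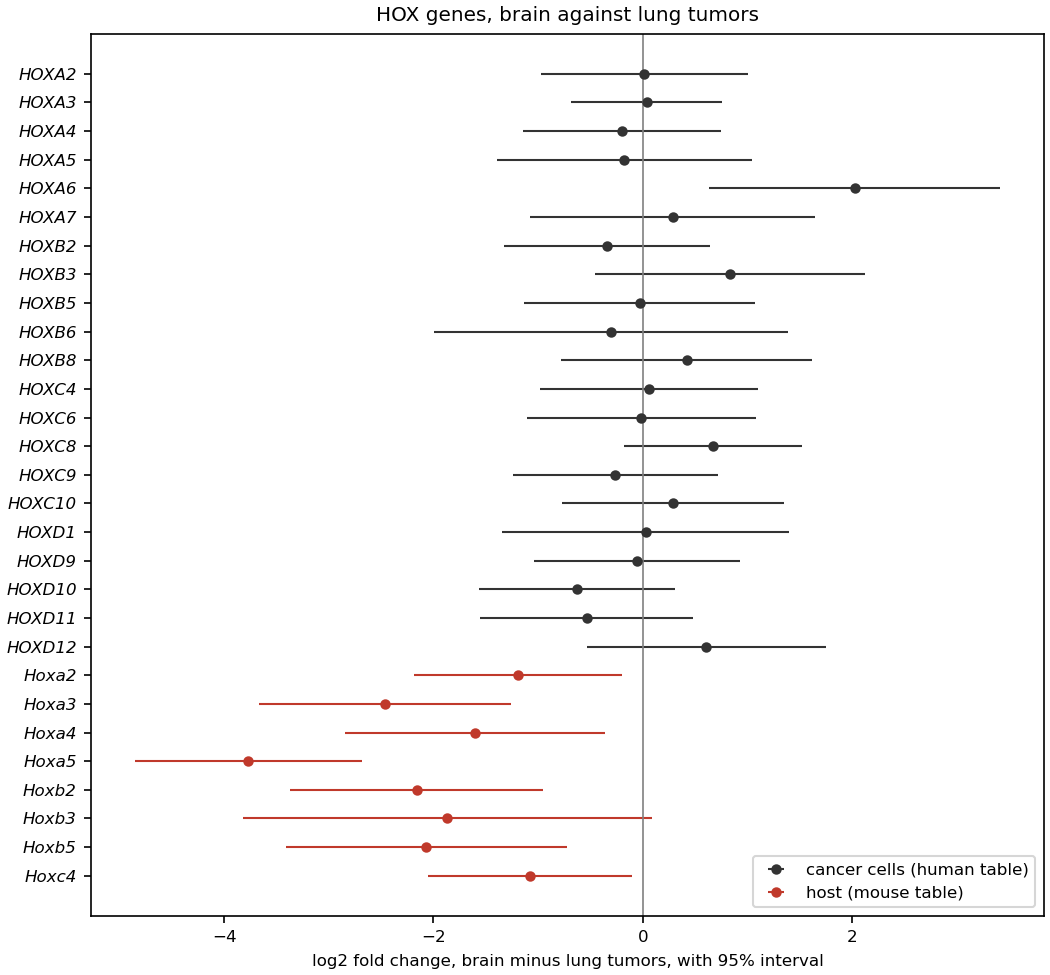
Log2 fold change of the tested members, brain minus lung tumors, with its 95% interval from limma on log2(RPKM + 1). The 21 human genes shown (black) lie around 0, with HOXA6 at 2.03 farthest out, and the 8 mouse genes (red) all lie below 0, from -1.08 to -3.77.

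In the hosts, 8 of the 24 mouse members were at 1 RPKM or more in at least 2 libraries and could be tested, and 4 of the 8 fell in the brain tumors by limma at an adjusted p under 0.05. Over all mouse genes tested, 8.12% were called lower and 22.4% called in either direction. All 8 lay below both lung tumors in every brain tumor, which was so for 26.2% of the mouse genes tested. Of the 8, 5 passed the filter through the lung tumors alone: Hoxa2, Hoxa3, Hoxa5, Hoxb2 and Hoxc4. A low value in the brain was thus built into their testing, also for the called Hoxa3, Hoxa5 and Hoxb2. Over all 24 listed members, tested or not, 10 had every brain tumor below both lung tumors (41.7%, against 17.2% of all listed mouse genes) and 0 had every brain tumor above (against 22.5%). The highest value of any member in a brain host was 2.75 RPKM, for Hoxb3. With no filter, limma called 1 of the 24, Hoxa5, against 9.32% of all mouse genes. Without lung tumor 1, limma called 5 of the 8 members, all lower, against 29.8% of all mouse genes in either direction and 13.7% lower, the lone lung tumor being assumed to vary like the brain tumors.

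Hoxa5, needed in the mouse for normal lung and airway structure, was the most abundant host member in both lung tumors. It had 0.768, 0.106 and 0.966 RPKM in the hosts of brain tumors 1, 2 and 3, against 20.2 and 20.5 RPKM in those of lung tumors 1 and 2. The reads numbered 4, 1 and 16 in the brain tumors, against 9 and 208 in the lung tumors. The groups lay far apart, and the 9 reads of lung tumor 1 gave an exact Poisson interval of 9.27 to 38.5 RPKM, above all 3 brain tumors. Hoxa5 fell in the brain tumors by limma (log2 fold change -3.77, SE 0.44, adjusted p = 0.00373). The scale of log2(RPKM + 1) understates the change of a low gene. Hoxa5 met the filter through the lung hosts alone. It passed in all 14 alternative fits, with -3.78 without lung tumor 1 and -3.76 without lung tumor 2. At the rate of lung tumor 2, 9.08 reads of Hoxa5 would fall in lung tumor 1, where the lung epithelial genes were far under that rate. So were the lung factors Foxf1 (3 reads, against 64.8 expected) and Tbx4 (1 read, against 25.5). The lung factor Gata6 had 13.2 RPKM in lung tumor 1 and 16.4 RPKM in lung tumor 2.

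Hoxa3, the pharyngeal arch gene that led the human table, had 0.797, 0 and 0.501 RPKM in the brain hosts, against 4.66 and 9.40 RPKM in the lung hosts. It fell by limma (log2 fold change -2.46, SE 0.49, adjusted p = 0.0193), and the groups did not overlap. Hoxb2 had 0.908, 0 and 0.333 RPKM in the brain hosts, against 3.54 and 7.22 RPKM in the lung hosts. By limma it fell too (log2 fold change -2.16, SE 0.49, adjusted p = 0.0292). Hoxa3 and Hoxb2 both met the filter through the lung hosts alone. Hoxb5, which acts in lung branching in the mouse, had 0.308, 0 and 1.40 RPKM in the brain hosts, against 3.6 and 7.19 RPKM in the lung hosts. Its fall was nearest the threshold (log2 fold change -2.07, SE 0.55, limma adjusted p = 0.0449). The lung tumor 1 values of these 3 genes came from 1, 2 and 2 reads, and the interval of the single Hoxa3 read ran from 0.118 to 26.0 RPKM. Without lung tumor 1 all 3 still passed limma (adjusted p = 0.0125, 0.0184 and 0.0355), but with any brain tumor left out none of them did.

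The other 4 tested members, Hoxb3, Hoxa4, Hoxa2 and Hoxc4, lay lower in the brain tumors without passing the test. Hoxb3 had 1.98, 0.312 and 2.75 RPKM in the brain hosts, against 3.30 and 17.5 RPKM in the lung hosts, where lung tumor 1 had 1 read and lung tumor 2 had 121. Its log2 fold change was -1.87 (SE 0.79, limma adjusted p = 0.143), and without lung tumor 1 it was -2.92 and passed (limma adjusted p = 0.0359). Hoxa4 had 0.452, 0 and 1.28 RPKM in the brain hosts, against 2.64 and 4.64 RPKM in the lung hosts (limma adjusted p = 0.0714). Both genes were lowest in brain tumor 2 and highest in lung tumor 2. Hoxa2 had 0.609, 0 and 0.319 RPKM in the brain hosts, against 2.37 and 1.56 RPKM in the lung hosts (limma adjusted p = 0.0854). Hoxc4 had 0.176, 0 and 0.442 RPKM in the brain hosts, against 2.05 and 1.08 RPKM in the lung hosts (limma adjusted p = 0.104). Lung tumor 1 was the higher lung library for both, from 1 read each.

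Several members were carried by lung tumor 2 alone and were not tested. Hoxa7, a trunk gene, had 0, 0.247 and 0.14 RPKM in the brain hosts, against 0 and 18.6 RPKM in the lung hosts, from 0, 1 and 1 reads against 0 and 81. Hoxb4, a gene of blood stem cells and neck, had 0.562, 0 and 0.663 RPKM in the brain hosts, against 0 and 6.05 RPKM in the lung hosts. At the rate of lung tumor 2 the expected reads in lung tumor 1 were 3.54 for Hoxa7 and 3.67 for Hoxb4, so its zeros for these genes say little at that depth. Hoxb6 had 1.80 RPKM in lung tumor 2 and 0.483 RPKM at most in the brain hosts, while Hoxa6 and Hoxb7 were above 0 in lung tumor 2 alone. Hoxc8, Hoxc9 and Hoxd8 passed 1 RPKM only in lung tumor 1, from 1 read each of Hoxc9 and Hoxd8 and an unfixed number of Hoxc8. Of all 24 members, 3 were at 0 in every brain host and 5 at 0 in both lung hosts.

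**Figure D4:**
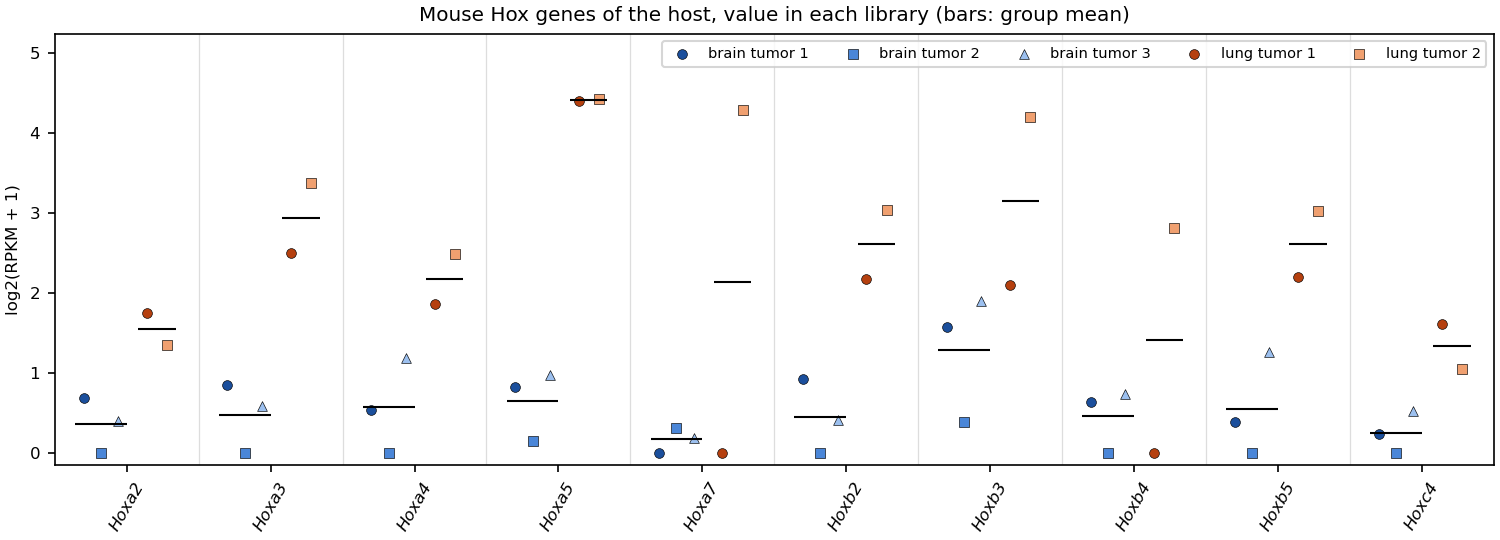
Values of 10 mouse Hox genes in each library as log2(RPKM + 1), the 8 tested members with Hoxa7 and Hoxb4, with brain tumors left of lung tumors and a bar at each group mean. The brain hosts stay below the lung hosts for 8 of them, and Hoxa7 and Hoxb4 overlap because lung tumor 1 is at 0.

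The brain hosts differed among themselves in their few Hox reads, with 38, 5 and 153 in brain tumors 1, 2 and 3. Brain tumor 2, from 4915553 mouse reads, had 4 members above 0, against 14 and 16 in brain tumors 1 and 3. Brain tumor 2 was also lowest for Lbx1, a spinal interneuron gene, with 3, 0 and 40 reads in brain tumors 1, 2 and 3. En2, a gene of the midbrain and hindbrain border, had 21, 4 and 213 reads. Cdx4, an activator of Hox genes at the tail end, had 0, 0 and 26 reads. For the forebrain gene Tbr1, at 25.2, 69.4 and 17.8 RPKM, brain tumor 2 was the highest brain host. The part of the sampled brain region in the Hox values was not tested.

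Genes of the tail end were read in the cancer cells of every library and hardly in the hosts. Positions 9 to 13 took 19.98%, 15.6% and 23.1% of the human HOX reads in brain tumors 1, 2 and 3, against 25.2% and 20.3% in lung tumors 1 and 2, and the exact binomial intervals of brain tumor 2 (13.8% to 17.5%) and lung tumor 1 (22.8% to 27.6%) lay farthest apart. HOXC9, HOXC10 and HOXD9 supplied most of these reads. Positions 9 to 13 had 13 members in the human table, against 3 in that of the mouse, Hoxa10, Hoxb9 and Hoxc9, so the shares of the species are over different gene sets. Lung tumor 2 had 0 of 826 mouse Hox reads there, with an exact binomial interval that reached 0.446%, and lung tumor 1 had 1 of 23. The brain hosts had 2 of 38, 0 of 5 and 1 of 153. HOXC9, listed in both tables, had 98 and 45 reads in the cancer cells of lung tumors 1 and 2, against 1 and 0 reads in their hosts.

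**Figure D5:**
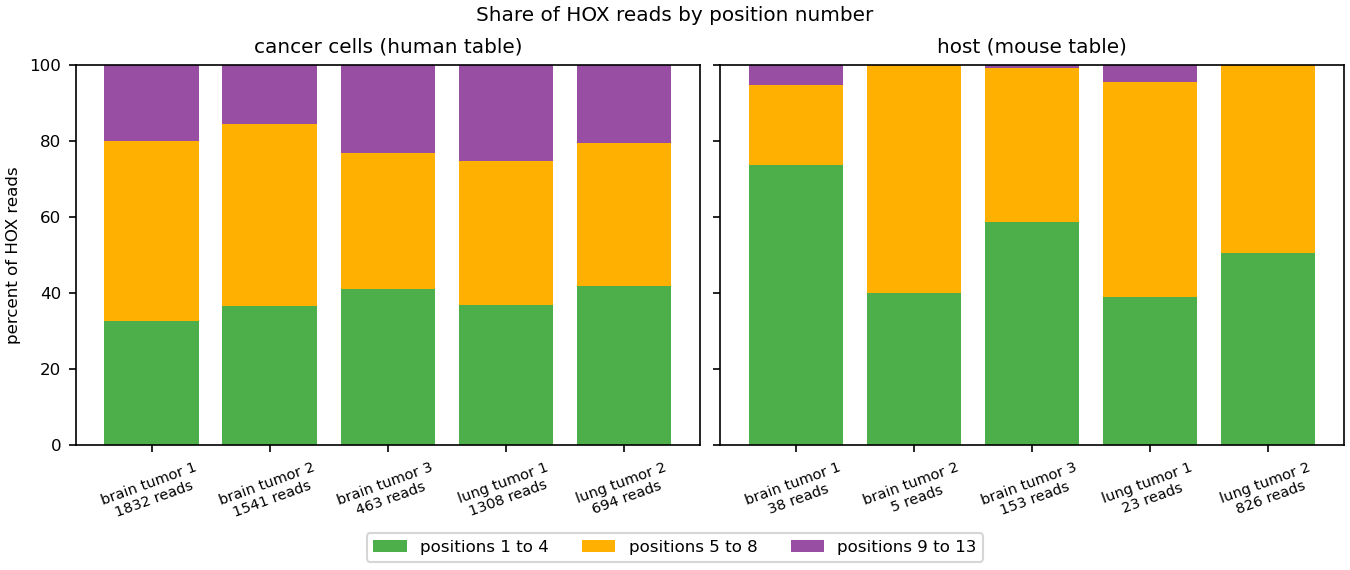
Percent of HOX reads at positions 1 to 4, 5 to 8 and 9 to 13 in each library, for the cancer cells (left) and the host (right), with the number of HOX reads under each bar. Positions 9 to 13 take 15.6% to 25.2% in the cancer cells and 0 of 826 reads in the host of lung tumor 2.

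The tables are scaled apart, so human and mouse levels were set side by side and not tested against each other. Of the 23 symbols in both tables, 1, 0 and 3 were at 1 RPKM or more in both species in brain tumors 1, 2 and 3, against 12 and 10 in lung tumors 1 and 2. In the cancer cells alone there were 15, 16 and 12 in the brain tumors, against 5 and 5 in the lung tumors, and in the host alone 0 in every library but lung tumor 2, which had 3. Those 3 were Hoxa7, Hoxb4 and Hoxb7, the last from a read number that is not fixed. These counts depend on depth. The host of lung tumor 1 had 12 members above 0 and the same 12 at 1 RPKM or more, from 23 reads, so any read met the cut. The brain hosts had 14, 4 and 16 members above 0, but 1, 0 and 3 at 1 RPKM or more. The count of lung tumor 1 is therefore not comparable with those of the brain tumors. In lung tumor 2 HOXA7 had 0.445 RPKM in the cancer cells from 1 read, against 18.6 RPKM in the host from 81, and HOXB4 had 0.0693 RPKM in the cancer cells, against 6.05 RPKM in the host. In lung tumor 1 the cancer cells had 313 reads of HOXA3, against 1 read in the host. Spearman's rho between human and mouse RPKM over the 23 symbols was 0.19, 0.07 and -0.02 in the brain tumors, against 0.44 and 0.20 in the lung tumors, a description over genes that share a library and neighbors that share reads.

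Of all reads, the human part was 75.6%, 56.5% and 22.1% in the brain tumors, against 96.6% and 41.4% in the lung tumors. Of HOX reads, it was 97.97%, 99.7% and 75.2% in the brain tumors, against 98.3% and 45.7% in the lung tumors. In every library the human share of HOX reads was above the human share of all reads. The HOX shares are over unlike gene sets, 33 human and 24 mouse members, with 10 symbols in the human table alone. Of these, HOXC10 and HOXD9 had 38 reads each in lung tumor 2, where the 2 shares lay closest.

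The partners of HOX proteins in the cancer cells also lacked a called change, as nearly all human genes did. Limma called 0.00693% of all tested human genes and voom 0 of them, so the absence of a call says little about these lists. Of 9 cofactor genes listed, the MEIS, PBX and PKNOX factors that bind DNA with HOX proteins, 8 were tested and 0 passed limma. Of the 8, 1 had an unadjusted p under 0.05 (10.5% of all tested human genes did), and voom called 0. PBX2 had 20.7, 17.5 and 17.5 RPKM in the brain tumors, against 2.99 and 17.1 RPKM in the lung tumors, with no overlap between the groups and lung tumor 1 far under lung tumor 2. Their median log2 fold change was 0.66, beside 0.09 for all human genes. Of 22 chromatin regulators of the clusters 0 passed limma, 2 had an unadjusted p under 0.05 (against the same 10.5%), and voom called 0. KMT2A, the methyltransferase that keeps HOX genes active, had 138, 159 and 160 RPKM in the brain tumors, against 33.1 and 91.6 RPKM in the lung tumors (log2 fold change 1.45, limma adjusted p = 0.450). EZH2, the catalytic subunit of the Polycomb complex that keeps them silent, had 15.3, 16.9 and 13.8 RPKM in the brain tumors, against 13.8 and 15.7 RPKM in the lung tumors. For KMT2A every brain tumor lay above both lung tumors, and for EZH2 the groups overlapped.

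Among long noncoding RNAs of the human clusters 5 of 14 listed were tested and 0 passed limma (0.00693% of all tested human genes did). An unadjusted p under 0.05 was reached by 0 (against 10.5%), and voom called 0, as over all human genes. HOXA-AS2 had 17.3, 30.0 and 49.6 RPKM in the brain tumors, against 30.0 and 14.9 RPKM in the lung tumors. HAGLR, which starts beside HOXD1, had 9.19, 9.43 and 8.26 RPKM in the brain tumors, against 14.5 and 18.6 RPKM in the lung tumors (log2 fold change -0.81, limma adjusted p = 0.485). HOTAIR, from between HOXC11 and HOXC12, had 0 reads in the brain tumors and 1 in each lung tumor. In HAGLR every brain tumor lay below both lung tumors, while HOXD1, which it overlaps, had overlapping groups.

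Other human lists gave no call either, where limma called 0.00693% of all tested human genes and voom 0 of them. Of the retinoic acid genes, whose product switches on HOX genes in the embryo, 13 of 17 listed were tested and 0 passed limma. An unadjusted p under 0.05 was reached by 3 (and by 10.5% of all tested human genes), and voom called 0. Genes that flank the clusters had 0 of 8 tested past limma, 1 at an unadjusted p under 0.05 (against the same 10.5%) and 0 by voom. Forebrain and midbrain factors had 0 of 7, hindbrain and spinal cord factors 0 of 2 and lung factors 0 of 7 past limma. Each had 0 at an unadjusted p under 0.05 (against the same 10.5%) and 0 by voom. Of the CDX and ParaHox genes only PDX1 was listed, at or under 1.44 RPKM. FOXA1, a pioneer factor of lung and other epithelia, led the lung factors at 43.9, 26.8 and 34.0 RPKM in the brain tumors, against 9.67 and 56.8 RPKM in the lung tumors.

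In the hosts the regional genes of brain separated the groups. Of 13 forebrain and midbrain factors tested, 7 rose in the brain tumors by limma (14.3% of all mouse genes tested were called higher), among them Dlx1, Emx1, Emx2, Lhx2, Otx2 and Tbr1. Of the 13, 12 met the filter through the brain hosts alone, so a low value in the lung was built into their testing. Lhx2 was at 33.4, 61.3 and 42.0 RPKM in the brain hosts and was listed at 0 in both lung hosts. Of 11 lung factors tested, 1 was called lower, Gata6, at 0.113, 0.0623 and 0.0355 RPKM in the brain hosts, against 13.2 and 16.4 RPKM in the lung hosts. Gata6 met the filter through the lung hosts alone, as 3 of the 11 did. Sox2 and Sox9, which brain progenitors and glia also use, rose (limma log2 fold changes 3.34 and 3.39), and without lung tumor 1 limma called 8 lower and 2 higher (13.7% and 16.1% of all mouse genes in that fit). Of 15 retinoic acid genes tested 3 fell, Aldh1a3, Dhrs3 and Rarg (limma log2 fold changes -3.27, -2.62 and -2.35), beside 8.12% of all mouse genes, and without lung tumor 1 limma called 5 lower and 1 higher. Dhrs3, which limits retinoic acid, had 35.6, 26.1 and 14.1 RPKM in the brain hosts, against 165 and 138 RPKM in the lung hosts. Of 9 cofactors 1 rose, Pbx4 (log2 fold change 2.80), beside 14.3% of all mouse genes, and without lung tumor 1 limma called 2 higher and 1 lower. Of 22 chromatin regulators 1 fell, the Polycomb subunit Eed (log2 fold change -1.19), beside 8.12% of all mouse genes, and voom called 0. Both counts are near or under the share of all genes. Of 5 hindbrain factors tested Egr2, which also responds early to stimulation in many cells, fell, a call that was lost without lung tumor 1.

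Of 4 mouse long noncoding RNAs of the clusters tested 0 passed limma, all 4 had an unadjusted p under 0.05 (38.5% of all mouse genes did), and voom called 1 lower (13.5% of all mouse genes). Of the 4, 3 met the filter through the lung hosts alone. Hotairm1, from the start of the A cluster, had 4.41, 0 and 0.831 RPKM in the brain hosts, against 82.4 and 7.68 RPKM in the lung hosts, where lung tumor 1 had 8 reads and lung tumor 2 had 17. Genes that flank the mouse clusters had 0 of 9 past limma, 3 at an unadjusted p under 0.05 and 1 lower by voom. Skap2, beside the A cluster, had 33.5, 25.5 and 13.9 RPKM in the brain hosts, against 63.9 and 65.3 RPKM in the lung hosts (log2 fold change -1.46, limma adjusted p = 0.0601). Both genes lay lower in every brain host than in either lung host.

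The fibroblast and mesenchyme markers of the host separated the groups as its Hox genes did, and within a group their order differed by gene. Their summed level was 149 to 653 RPKM in the brain hosts, against 6199 to 12338 RPKM in the lung hosts, and 3 of the 5 fell by limma (8.12% of all mouse genes). The sum was lowest in brain tumor 3, the brain host with the most Hox reads per mouse read. It was higher in lung tumor 1 than in lung tumor 2, the lung host with more Hox reads per mouse read. Col1a1 and Pdgfra were also lowest in brain tumor 3, but Col1a2, Dcn and Lum in brain tumor 2, the brain host with the fewest Hox reads. Of the 5, Pdgfra alone was lower in lung tumor 1 (159 RPKM) than in lung tumor 2 (359 RPKM). Other leukocyte and marrow markers summed to 10.9 to 23.7 RPKM in the brain hosts, against 436 to 468 RPKM in the lung hosts, with 2 of 4 tested called lower. The alveolar and airway markers summed to 17.4 to 54.1 RPKM in the brain hosts, against 948 and 64225 RPKM in lung tumors 1 and 2, with 5 of 5 called lower. These epithelial markers and the lung factors Foxf1 and Tbx4 were far lower in lung tumor 1 than in lung tumor 2. There the mouse Hox members together had 23 reads, against 36.1 expected at the rate of lung tumor 2. The part of the makeup of the host tissue in the Hox values was not tested.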

How the data were processed

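The authors deposited RPKM per gene in 1 human and 1 mouse table, made with GRCh38 (hg38) and GRCm38 (mm10) per the labels. Which aligner, counter, gene lengths and species filter were used is not given in the sources used here. All per-sample columns were matched to samples by library number (0 left unmapped). Reads were recovered from the whole-number ratios of RPKM between libraries, up to a common divisor, so totals are lower bounds. For a gene above 0 in 1 library the read number is not fixed and was set to at least 1.

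Genes reaching 1 RPKM in at least 2 libraries were fitted on log2(RPKM + 1) with limma 3.58.1 in R 4.3.3, as brain minus lung with an intensity trend, two-sided, with Benjamini-Hochberg adjustment over all tested genes of a species and a threshold of 0.05. The code was tested on simulated data. Exact permutation was not used, since 3 libraries against 2 allow no p under 0.2. Members that met the filter are named with a value in each library, and other lists are given by counts, with called members and some of the highest mean named. A few genes are counted but not reported here by name. Further genes were chosen after their values were seen. The members and lists were chosen with earlier results of these data known. Human coordinates are from RefSeq on GRCh38.p14, and mouse positions and sequences were not used here. Alternatives were other pseudocounts, filters, scalings, no trend, the replicate number as a block, voom on recovered reads and leaving out each library.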

Additional observations from a re-analysis of the deposited data

How the results depend on the processing

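The 4 called HOX members kept their sign under the alternatives that tested them; other called genes were not followed one by one. Among human genes the members called went to 1 (HOXA6) with the replicate number as a block, where its log2 fold change was 2.28 (limma adjusted p = 0.0290). Leaving out 1 library gave 0 to 1 member called and 0 to 1905 human genes called, against 1 in all libraries, the 1905 without lung tumor 2. The block called 114 human genes and voom 0. At 5 RPKM 11 human members were detected, against 22 at 1 RPKM.

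Of the 4 mouse members called, 1 (Hoxa5) was called with a pseudocount of 0.1, with no filter (1 of 24, against 9.32% of all mouse genes), at a filter of 5 RPKM and with the block. Leaving out 1 library gave 1 to 5 members called, 1 without any of the brain tumors, and 1195 to 8275 mouse genes called, against 3457. No filter gave 2295 mouse genes and the block 1484. Hoxb5 was also lost with a pseudocount of 0.5 (adjusted p = 0.0565), with median-ratio scaling (0.0501) and without lung tumor 2 (0.0663, limma). Mouse members detected numbered 16 at 0.1 RPKM, 1 at 5 RPKM and 3 without either lung tumor, against 8. The causes were not tested.

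Deviations of same-numbered tumors from their group means correlated at -0.08 and 0.06 in human and 0.03 and 0.05 in mouse genes. With 2 lung tumors, the deviations of 1 mirror those of the other. This check therefore cannot settle whether the replicate numbers pair the samples. The median log2 fold change of all mouse genes was 0.08 as deposited, 0.22 after median-ratio scaling, -0.11 after quantile normalization and -0.15 by voom, and the 4 called members lay below 0 in each. Depth limits most the host of lung tumor 1, where 1 read of Hoxa2 is worth 2.37 RPKM.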
